A study of Saccharomyces cerevisiae with 262 samples.

Results

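The nuclear genes for the respiratory chain and the ATP synthase of budding yeast, 36 of the 5605 genes named on the arrays, were chosen by symbol: the 4 subunits of complex II, 3 NADH dehydrogenases, 9 subunits of complex III, 8 of complex IV and 12 of complex V. Their transcripts were compared between RM11-1a (RM), a haploid wild wine strain, BY4716 (BY), a haploid laboratory strain isogenic to S288c, and haploid segregants of the cross between them. Total RNA of each strain was hybridised on 2-colour arrays against a pool of BY4716 RNA, in both dye orientations, so that 262 arrays made 131 dye-swap pairs: 12 of RM under 6 replicate numbers, 6 of BY, and all others of segregants, 1 pair per strain. Each value below is a log2 ratio of own RNA over the BY4716 pool, averaged over both arrays of a pair. A positive value means more transcript than in the pool, and it gives no absolute level. No agent or treatment is named for any group, and the labels do not say whether replicates came from separate cultures, so the p-values measure the spread between these samples, which may be technical. RNA came from whole cultures, in which a change in the share of cells and a change per cell cannot be told apart.

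The respiratory chain moves electrons from NADH and succinate through ubiquinone to complex III (cytochrome bc1), on to cytochrome c and complex IV (cytochrome c oxidase), and finally to oxygen. Complexes III and IV pump protons across the inner mitochondrial membrane, and the returning protons drive complex V, the ATP synthase. Budding yeast has no proton-pumping complex I and uses single-protein NADH dehydrogenases in its place. When glucose is plentiful it ferments and holds most of these genes low. The transcription factor HAP4, as part of the HAP2/3/4/5 complex, raises many of them in respiratory growth, and HAP1 activates a smaller set in response to heme.

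The arrays measured between 3597 and 6581 of 7085 probes, with medians of 6341 in segregants, 6488 in RM and 4756 in BY. Strain markers set the direction of the ratio: LEU2, a leucine synthesis gene known to be deleted in RM, lay between -6.48 and -5.59 in RM and between -0.14 and 0.27 in BY. STE2, the alpha-factor receptor of MATa cells, lay between 4.79 and 5.49 in RM and between -0.44 and -0.05 in the 4 BY replicates that measured it. The 6 BY replicates formed separate sets. Over all probes tested, profiles of replicates 1 and 2 correlated with r = 0.79, those of replicates 3 to 6 with a mean r of 0.88, and the sets with each other with a mean r of -0.39. BY was compared with a pool of its own strain, so no marker checks the direction of replicates 1 and 2, so the main results below are given without them as well.

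All 27 respiratory genes that could be tested were higher in RM than in BY, with a median difference of 1.32 on the log2 scale, or 2.49-fold. Differences ranged from 0.44 for ATP14 to 2.35 for CYT1, which is 1.36-fold to 5.11-fold. In the same test (limma on both parents, Benjamini-Hochberg adjusted p under 0.05), 56% of the 2639 probes tested were called in either direction, 34.8% higher in RM and 21.2% lower, and the median over all probes was 0.03. No RM replicate overlapped a BY replicate for any of the 27 genes, whereas 24.7% of all probes had every RM value above every BY value. By size of the difference, 7 of the 27 were among the 20 probes with the highest difference, 15 among the first 50 and 24 among the first 100. With BY replicates 3 to 6 alone all 27 were again called, with a median of 1.48 against 36.2% of all probes called higher. With BY replicates 1 and 2 alone all 27 were called too, with a median of 1.01 against 38%. The remaining 9 genes (NDI1, NDE2, QCR7, QCR9, QCR10, COX7, COX8, COX9 and ATP15) lacked values in BY and were left out of the test. When 1 array of a pair was enough to give a value, all 36 were called higher, against 30.2% of 5067 probes. The smallest of the 9 was QCR7, at 0.20.

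**Figure D1:**
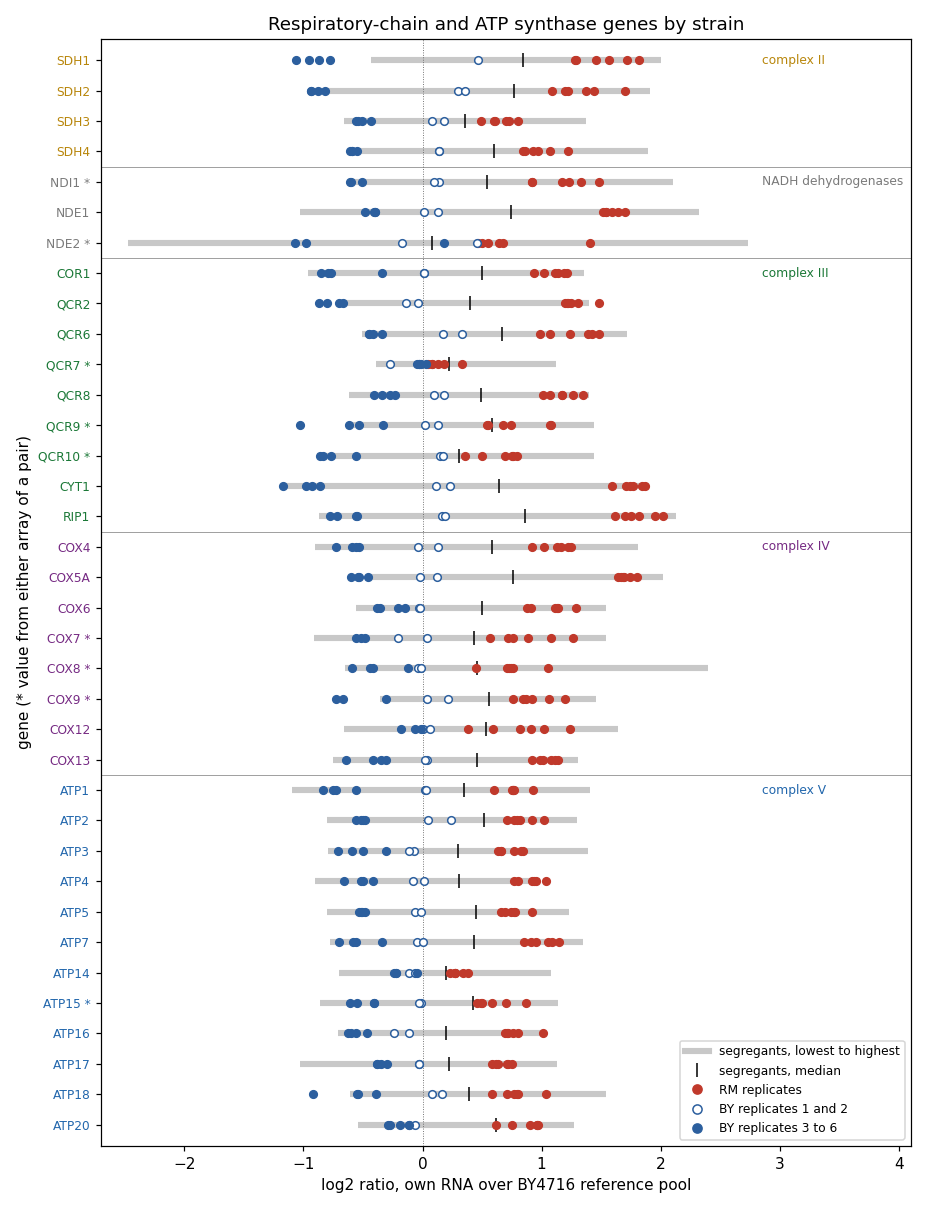
Log2 ratio of own RNA over the BY4716 pool (horizontal axis) for the 36 genes, coloured by complex. Grey bars run from the lowest to the highest segregant with a tick at the median, red points are RM replicates, and blue points are BY replicates (open, 1 and 2; filled, 3 to 6). For every gene the RM points lie right of the BY points. For each of the 9 genes marked with an asterisk, values needing only 1 array of a pair are drawn. Segregants span the gap between the parents, and NDE2 has the longest bar, from -2.47 to 2.73.

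Complex II, the succinate dehydrogenase shared with the tricarboxylic acid cycle, had 4 of 4 subunits higher in RM; their median difference was 1.57. SDH1, the flavoprotein subunit that oxidises succinate, was 1.28 at the lowest, 1.51 at the median and 1.82 at the highest in the 6 RM replicates, against -1.06, -0.87 and 0.47 in the 5 BY replicates with a value. The RM and BY ranges did not overlap, and BY replicate 1 lay far above the other BY values. The SDH1 difference was 2.16 (SE 0.240, adjusted p = 9.18e-06, limma), or 2.44 with BY replicates 3 to 6 alone and 1.05 against replicate 1 alone, the only value of the other set. SDH2, the iron-sulfur subunit, was 1.09, 1.29 and 1.70 in RM and -0.94, -0.85 and 0.36 in BY, a difference of 1.82 (SE 0.243). The membrane anchors SDH3 and SDH4 differed by 0.95 and 1.32. All 4 subunits were split within BY: the complex mean was 0.25 and 0.23 in BY replicates 1 and 2 and between -0.78 and -0.68 in replicates 3 to 6, against 0.92 to 1.38 in RM. Their median difference was therefore 0.92 with BY replicates 1 and 2 alone and 1.90 with replicates 3 to 6 alone.

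Of the NADH dehydrogenases, NDE1, which oxidises cytosolic NADH at the outer face of the inner membrane, was the only 1 of 3 that could be tested. It was 1.52 at the lowest, 1.57 at the median and 1.70 at the highest in RM, against -0.48, -0.40 and 0.13 in BY. RM and BY were far apart and RM kept within a narrow range. BY split by set, with 0.01 and 0.13 in replicates 1 and 2 and between -0.48 and -0.40 in replicates 3 to 6. The NDE1 difference was 1.85 (SE 0.0993, adjusted p = 4.57e-09, limma). It was 2.01 with BY replicates 3 to 6 alone and 1.52 with replicates 1 and 2 alone. With 1 array of a pair accepted, NDI1, the enzyme that faces the matrix, was 0.92, 1.20 and 1.48 in RM and -0.61, -0.51 and 0.14 in 5 BY replicates, a difference of 1.47. NDE2, the second external enzyme, was 0.47, 0.59 and 1.41 in RM and -1.07, -0.17 and 0.46 in 5 BY replicates. Its highest BY value and its lowest RM value nearly met, and the difference was 1.03 (SE 0.277, adjusted p = 0.00807, limma).

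Complex III had 6 of 6 tested subunits higher in RM, and its median of 1.69 was the highest of the 4 complexes over tested subunits. QCR7, QCR9 and QCR10, left out of the test, differed by less than each of these 6, so this rank covers tested subunits alone. With BY replicates 3 to 6 alone the tested median was 1.91, beside 1.90 for complex II. With replicates 1 and 2 alone it was 1.23, beside 0.92 for complex II. Differences between complexes were not tested. CYT1, the cytochrome c1 that hands electrons to cytochrome c, was 1.59 at the lowest, 1.75 at the median and 1.87 at the highest in RM, against -1.17, -0.90 and 0.23 in BY. The groups did not overlap, and the difference of 2.35 (SE 0.223, adjusted p = 1.17e-06, limma) was the highest of all 27 genes. With BY replicates 3 to 6 alone CYT1 differed by 2.74, and with replicates 1 and 2 alone by 1.58. RIP1, the Rieske iron-sulfur protein, was 1.62, 1.79 and 2.02 in RM and -0.78, -0.55 and 0.19 in BY, a difference of 2.19 (SE 0.169). These are the catalytic subunits made in the nucleus, and both exceeded the other 4 tested subunits, which differed by 1.81 (QCR2) and 1.56 (COR1) for the core proteins and by 1.46 (QCR6) and 1.34 (QCR8) for the small subunits. QCR7, which sits beside cytochrome b, stood out as low. With a value from either array its RM replicates lay between 0.05 and 0.33 and its BY replicates between -0.27 and 0.03, so RM and BY barely separated (difference 0.20, SE 0.0597, adjusted p = 0.0125, limma). In the same setting QCR9 differed by 1.17 and QCR10 by 1.09.

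Complex IV had 5 of 5 tested subunits higher in RM, by 1.32 at the median, or 1.47 with BY replicates 3 to 6 alone and 1.07 with replicates 1 and 2 alone. COX5A, the aerobic form of subunit V, was 1.64 at the lowest, 1.68 at the median and 1.80 at the highest in RM, against -0.60, -0.49 and 0.12 in BY. The 6 RM replicates lay close together and far above BY, and the difference was 2.04 (SE 0.115, adjusted p = 7.03e-09, limma). COX5B, the form made in low oxygen, ran the other way: it was -1.35, -1.13 and -1.03 in RM and -0.43, -0.16 and 0.29 in 5 BY replicates, a difference of -1.06 (SE 0.111, adjusted p = 4.95e-06, limma). The isoforms thus separated the parents in opposite directions, on probes of related sequence whose cross-hybridisation was not tested. COX4, COX13 and COX6 differed by 1.50, 1.32 and 1.27. COX12, a small subunit on the intermembrane-space side, gave the smallest tested difference of the complex, 0.86, with RM replicates spread from 0.38 to 1.24. With a value from either array, COX9, COX7 and COX8 differed by 1.24, 1.23 and 1.01.

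Complex V had 11 of 11 tested subunits higher in RM, by 1.13 at the median, the lowest of the 4 complexes (1.34 with BY replicates 3 to 6 alone, 0.79 with replicates 1 and 2 alone). In the F1 head, ATP1, the alpha subunit, was 0.60 at the lowest, 0.76 at the median and 0.93 at the highest in RM, against -0.84, -0.65 and 0.03 in BY (difference 1.23, SE 0.150). ATP2, the catalytic beta subunit, was 0.71, 0.80 and 1.02 in RM and -0.56, -0.49 and 0.24 in BY (difference 1.13, SE 0.135, adjusted p = 9.99e-06, limma). The rotor subunits ATP3 (gamma) and ATP16 (delta) differed by 1.11 and 1.21, and with 1 array of a pair accepted ATP15 (epsilon) differed by 0.94. In the stator, ATP7, ATP4 and ATP5 differed by 1.38, 1.26 and 1.11. ATP14, also of the stator, was 0.23, 0.27 and 0.38 in RM and -0.24, -0.17 and -0.05 in BY. Its difference, 0.44 (SE 0.0444, adjusted p = 2.03e-06, limma), was the smallest of the 27 genes, though the groups did not overlap. When all 3 groups shared 1 fit, ATP14 was the 1 member no longer called (adjusted p = 0.0634). The small membrane subunits ATP17, ATP18 and ATP20 differed by 0.91, 1.14 and 1.03. TIM11, their partner in dimers of the enzyme, differed by 1.01, and INH1, which inhibits ATP hydrolysis by the enzyme, by 1.45 (adjusted p = 1.38e-05, limma).

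**Figure D2:**
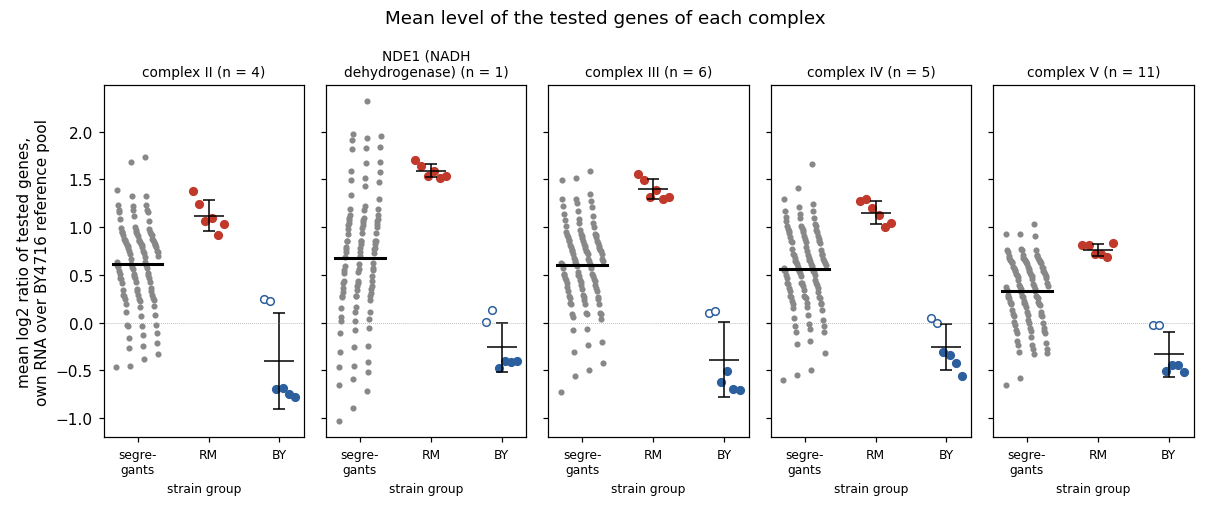
Mean log2 ratio over the tested genes of each complex (n above each panel; for the NADH dehydrogenases this is NDE1) in segregants, RM and BY. Grey points are segregants with a line at their mean; red and blue points are replicates with mean and SD, open for BY replicates 1 and 2. RM averages 1.12, 1.40, 1.15 and 0.76 for complexes II, III, IV and V, against -0.40, -0.39, -0.26 and -0.33 in BY.

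Genes outside the chain were compared from lists of the same pathway. Over all probes 34.8% were called higher in RM and 21.2% lower. Of 11 tricarboxylic acid cycle genes, 9 were tested and 9 were higher in RM, with a median of 0.71 and MDH1, malate dehydrogenase, at 1.33. Of 38 factors that assemble the complexes, 12 were tested: 9 were higher and 3 were not called, with a median of 0.24. Those 9 included SCO1, a copper carrier for complex IV, at 0.54 and CBP6, needed for cytochrome b, at 0.46. Of 12 genes for cytochrome c and other electron donors, 6 were tested and 4 were higher, among them GUT2, the glycerol-3-phosphate dehydrogenase, at 1.44 and CYC1, the main cytochrome c, at 0.84. Of 14 glycolytic genes, 7 were tested: 5 were lower in RM and 2 were not called, with a median of -0.30 and HXK2, a hexokinase, at -0.89. The 7 subunits encoded in the mitochondrial genome had no probe of their name and were not analysed here. With all 3 groups in 1 fit, CYC1, COX5B, SCO1 and HXK2 were no longer called (adjusted p = 0.173, 0.0590, 0.0506 and 0.0755, limma). In that fit 474 of the 2639 probes were called in either direction. Of the tricarboxylic acid cycle genes 8 of 9 were called higher. So were 1 of the 12 assembly factors and 2 of the 6 electron donor genes. Of the 7 glycolytic genes 0 were called in limma (2 had an unadjusted p under 0.05). The tricarboxylic acid cycle median was 0.83 (9 called) with BY replicates 3 to 6 alone and 0.32 (7 called) with replicates 1 and 2 alone. Over all probes 36.2% and 38% were called higher with those sets. MDH1 differed by 1.65 and 0.68 from those sets, and GUT2 by 1.91 and 0.73. Among the regulators, HAP4 was 0.61 at the lowest, 0.81 at the median and 0.97 at the highest in RM, against -0.94, -0.63 and 0.24 in BY. HAP4 split the BY replicates as the members did, with 0.13 and 0.24 in replicates 1 and 2 and between -0.94 and -0.62 in replicates 3 to 6, and its part in the result was not tested. The HAP4 difference was 1.22 (SE 0.182, adjusted p = 7.47e-05, limma), or 1.53 with BY replicates 3 to 6 alone and 0.62 with replicates 1 and 2 alone. HAP1 ran the other way with no such split. It lay between -1.68 and -1.54 in RM and between -0.02 and 0.22 in BY (difference -1.70, SE 0.0414, adjusted p = 1.10e-12, limma). These are transcript levels, and the activity of the HAP1 protein was not measured.

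Segregants filled the space between the parents. The mean over the 27 tested genes ran from -0.58 at the lowest through 0.51 at the median to 1.31 at the highest segregant, against 0.95 to 1.18 in RM and -0.61 to 0.06 in BY. By this mean 2 segregants exceeded the highest RM replicate, 9 lay within the RM range, 88 between the ranges, 14 within the BY range and 0 below it. BY replicates 1 and 2 set the upper end of that range: replicates 3 to 6 spanned -0.61 to -0.47, and 1 segregant lay within that span. For single complexes the number within the BY range was 23 for complex II, 15 for complex III, 13 for complex IV and 17 for complex V. Within the span of BY replicates 3 to 6 the numbers were 0, 1, 3 and 0. Segregants in the RM range numbered 23, 3, 14 and 9 for the same complexes. These ranges differed in width, with 0.92 to 1.38 for complex II and 0.69 to 0.83 for complex V. The counts therefore do not rank the complexes.

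The segregant mean was set against the midpoint of the parents, which asks whether the cross centres where its parents do. In limma 0 of the 27 genes were called as departing from the midpoint. SDH1, at 0.36 above it (95% interval 0.03 to 0.69), was the 1 gene with an unadjusted p under 0.05 (p = 0.0322, adjusted p = 0.336). The fit took 1 residual variance for all groups, though the members' median SD was 0.427 in segregants and 0.267 within parents. The parental means thus carried the segregants' spread as error, so a count of 0 does not place these genes at the midpoint. Over all probes 2.2% were called and 12.6% had an unadjusted p under 0.05. The 27 differences ran from -0.02 to 0.36 with a median of 0.13, and 25 were above 0. With BY replicates 3 to 6 alone the median was 0.22, again with 0 called, 7 at an unadjusted p under 0.05, and 1.21% of all probes called.

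The order of strains was shared across genes at both ends. Segregant 15-4-d was the lowest for 11 of the 36 genes and 14-6-d for 10, and only 10 strains held the 36 lowest places. At the upper end 2-3-d was the highest for 10 genes, 12-2-b for 6 and 8-4-c for 5, with 12 strains in all. These strains differed in which complexes were extreme. Segregant 9-6-d had a complex V mean of -0.65, below all BY replicates, beside 0.04 for complex III and 0.05 for complex IV. Segregant 14-6-d had NDE1 at 0.85 beside -0.56 for complex III and -0.55 for complex IV. In segregant 2-3-d, complexes III, IV and V stood at 1.59, 1.66 and 0.91 and NDE1 at 1.84, all above every RM replicate. Its complex II mean, at 1.23, lay within the RM range.

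NDE2 varied most. In the segregants with values on both arrays it ran from -2.47 through a median of 0.05 to 2.73, an SD of 1.03, where NDE1, the next widest, had 0.673 and ATP14 had 0.317. With a value from either array, 18 segregants exceeded the highest RM replicate and 5 lay below the lowest BY replicate. NDE2 values on Cy5 and Cy3 arrays of the same pair correlated with r = 0.86 over segregants, so both dyes gave a like order. Across the 36 genes that r ran from 0.41 for QCR10 and 0.43 for COX8 to 0.93 for SDH2. The segregants also reached past the parents for ATP14, with 32 above the highest RM replicate, and, with a value from either array, for QCR7 (31) and QCR10 (27). Between dyes these genes correlated at 0.57, 0.54 and 0.41. Some RM values average several pairs, where each segregant has 1 pair. The share of measurement error in these counts was not tested.

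The segregants' spread was tested against that of the parental replicates, which asks whether it exceeds the spread between replicates of a parent. Here the first pair of each RM number was used, so that each value came from 1 pair. Of the 27 genes, 5 were called more variable in segregants (NDE1, COX5A, ATP14, ATP17 and ATP20), where 41.7% of all probes were. NDE1 kept its call under every alternative run, whereas ATP17 lost it under 4, ATP14 on either dye alone, ATP20 on Cy5 arrays alone and COX5A with at least 3 values per parent, at adjusted p between 0.0503 and 0.126 (limma). NDE1 had an SD of 0.673 in segregants and 0.232 within parents (adjusted p = 0.0293, limma on absolute deviations), and COX5A 0.526 and 0.236 (adjusted p = 0.0403, limma). With BY replicates 3 to 6 alone, 24 of 27 were called, all but COX6, COX12 and ATP18, where 59.8% of all probes were. An F ratio of the variances called 15 of 27, against 77.1% of all probes. The first count thus rested on BY replicates 1 and 2, which raised the parental SD of the members. The median SD of the 27 genes was 0.427 in segregants and 0.267 within parents, or 0.162 within parents when BY replicates 3 to 6 stood for BY. For all probes those medians were 0.258, 0.110 and 0.0903. The share of segregant variance beyond the parental variance had a median of 0.66 over the 27 genes and 0.80 over all probes, and with BY replicates 3 to 6 alone 0.86 and 0.88.

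**Figure D3:**
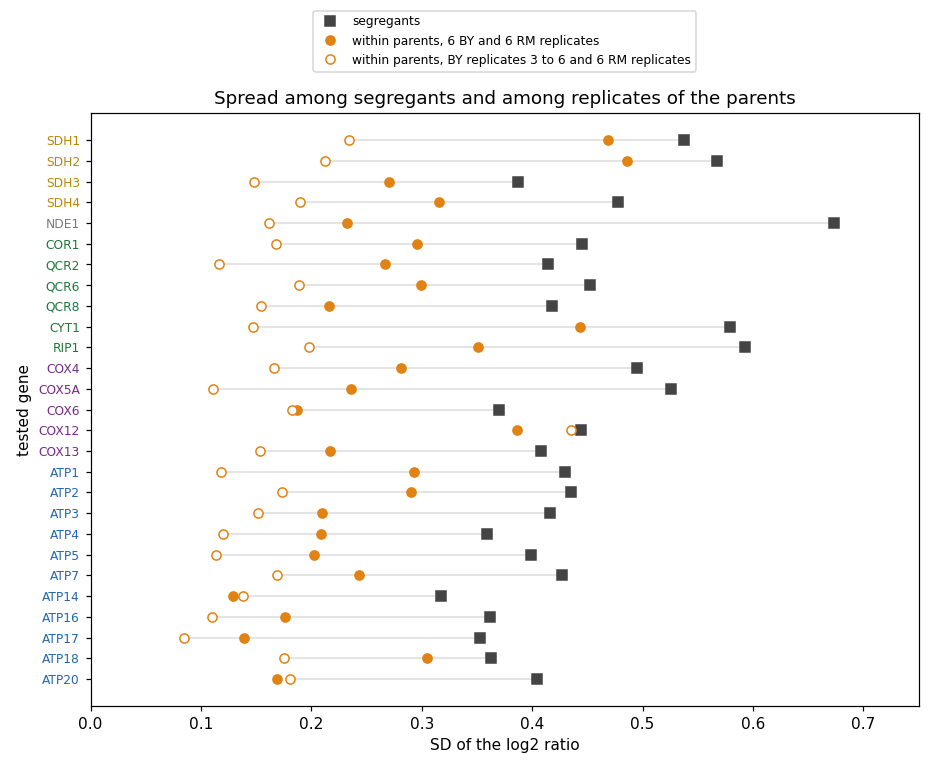
SD of the log2 ratio (horizontal axis) for the 27 tested genes: squares, segregants; filled circles, within parents with all BY replicates; open circles, within parents with BY replicates 3 to 6. NDE1 has the highest segregant SD, 0.673. For SDH1, SDH2 and CYT1 the filled circles (0.469, 0.486 and 0.443) lie close to the squares, and the open circles (0.234, 0.212 and 0.147) lie well below them.

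Across segregants the genes varied together. The median Pearson r was 0.69 over the 630 pairs of members, 0.76 within a complex and 0.66 between complexes, against 0.02 over all pairs of named probes tested. These correlations are a description: all points share the reference pool, and genes on 1 array share its error. The closest pairs were CYT1 with RIP1 at 0.93, ATP4 with ATP7 at 0.92, RIP1 with COX5A at 0.91 and COR1 with ATP3 at 0.91, so 2 of the first 4 joined different complexes. Within complexes the median was 0.80 for complex II, 0.75 for III, 0.72 for IV and 0.78 for V. Between complexes it was 0.75 for III with IV and 0.72 for II with V, and lower, at 0.61, for II with IV. COR1, ATP1 and ATP3 lie on the same chromosome, II, and correlated with each other at 0.87 to 0.91. Over all members, though, same-chromosome pairs had a median of 0.68 (50 pairs) and other pairs 0.69 (580 pairs).

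**Figure D4:**
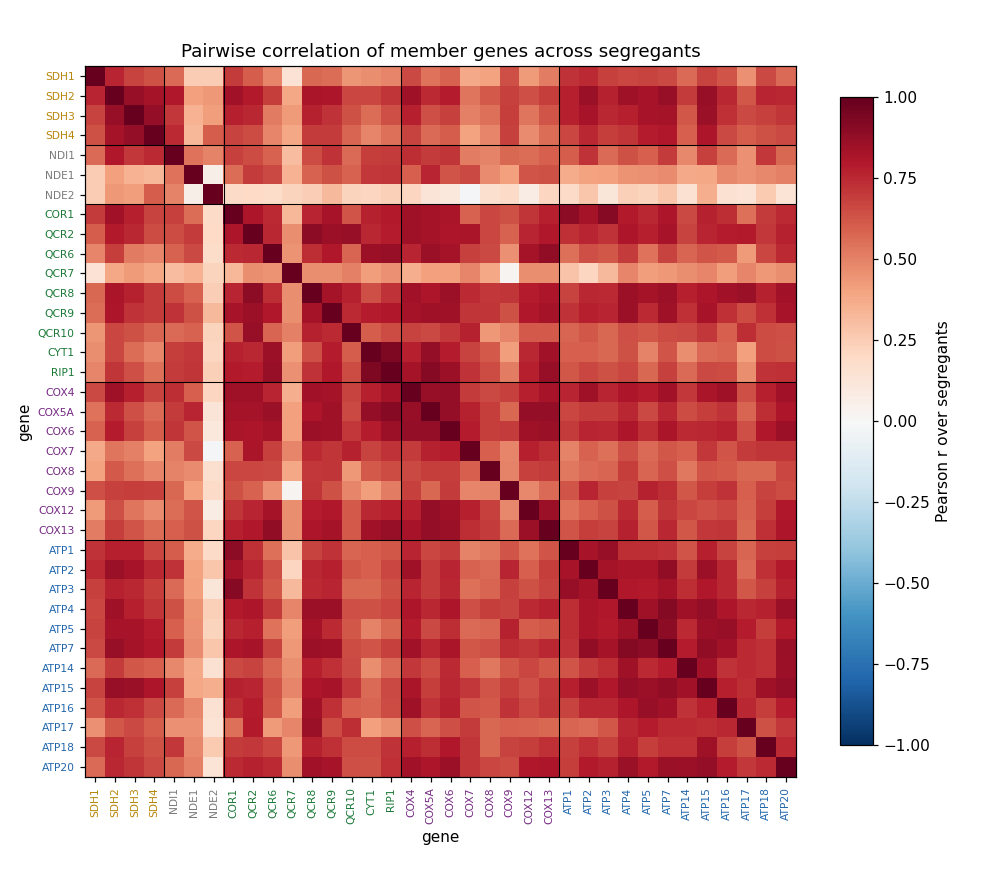
Pearson r across segregants for each pair of the 36 genes, ordered by complex with lines between complexes (red, positive; white, near 0; blue, negative). Most cells are deep red. NDE2 and QCR7 form pale rows, and NDE1 is paler with complexes II and V than with III and IV.

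NDE2 had the weakest ties to the other members, with a median r of 0.21, against 0.48 for NDE1 and 0.61 for NDI1. NDE1 and NDE2, which do the same reaction, correlated at 0.06. NDE1 was most like COX5A, at 0.76, NDE2 most like SDH4, at 0.60, and NDI1 most like SDH2, at 0.80. The lowest r of all pairs was -0.02, for NDE2 with COX7. QCR7 was the other weakly tied gene, with a median r of 0.42 to the other members and its best match, QCR10, at 0.51. The first principal component held 67.8% of the members' variance and the second 7.10%. On the second, NDE1 (0.32), CYT1 (0.26), QCR6 (0.25), COX7 and COX12 (0.24 each), RIP1 (0.22) and COX5A (0.21) had the highest loadings and SDH4 (-0.27), SDH1 (-0.24), NDE2 (-0.23) and SDH3 (-0.22) the lowest.

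The correlation with the HAP1 transcript also differed between complexes. Over segregants HAP1 ran from -1.56 through -0.49 to 0.78, and r with the members ran from -0.68 for COX5A to 0.14 for NDE2, below 0 for 35 of 36. By complex the median r with HAP1 was -0.54 for complex IV, -0.43 for III, -0.27 for V and -0.17 for II. RIP1 and QCR6 stood at -0.60, COX12 at -0.57, CYT1 and COX13 at -0.56, and NDE1 and COX7 at -0.55. SDH1 stood at -0.11 and SDH4 at -0.12. Single genes departed from their complex: QCR7 stood at -0.13 and QCR10 at -0.29 in complex III, and COX9 at -0.21 in complex IV. In complex V, ATP20 stood at -0.47 and ATP16 at -0.37. The HAP4 transcript gave r above 0 for all 36, from 0.15 for NDE2 to 0.68 for SDH2 and COR1, with complex medians between 0.55 and 0.61 for complexes II to V. Leaving out the 2 segregants farthest from the median moved no r with HAP1 by more than 0.05 and none with HAP4 by more than 0.09. HAP1 and HAP4 themselves correlated at -0.29.

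**Figure D5:**
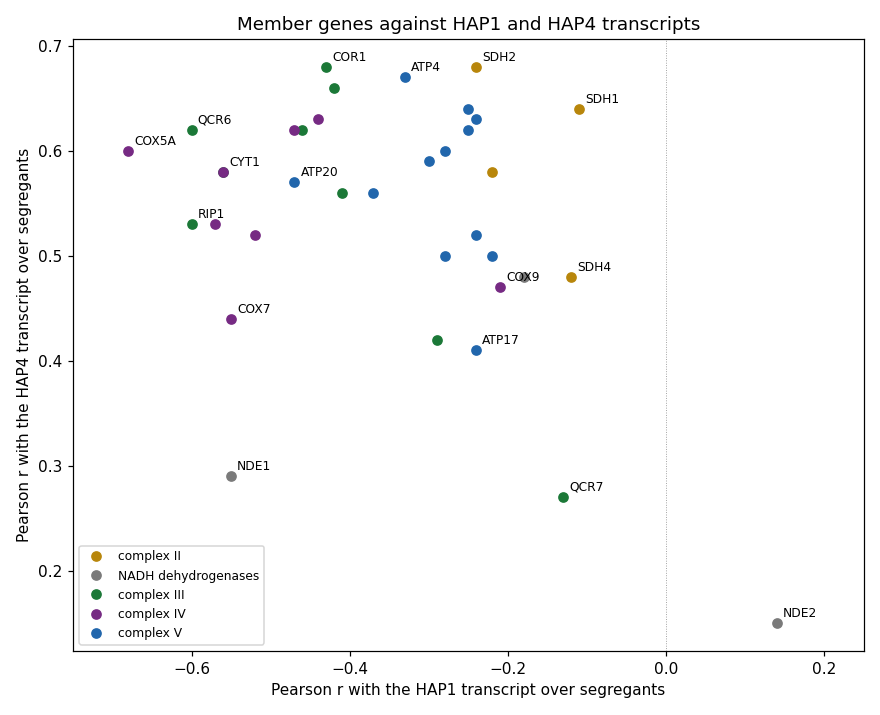
Each point is 1 of the 36 genes, coloured by complex: r with the HAP1 transcript over segregants (horizontal axis) against r with the HAP4 transcript (vertical axis). COX5A lies farthest left, at -0.68. Complexes III and IV lie mostly left of complexes II and V, at similar heights, and NDE2 lies alone at the lower right, at 0.14 and 0.15.

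The cytochrome c genes had higher median r with complexes III and IV than with II and V. CYC1 correlated with complexes III and IV at medians of 0.51 and 0.53, and with II and V at 0.12 and 0.24. CYC7, the low-oxygen cytochrome c, gave 0.44 and 0.53 for complexes III and IV and 0.13 and 0.23 for II and V. COX9, of complex IV, departed from this, at 0.05 with CYC1 and 0.07 with CYC7. ATP20, of complex V, reached 0.38 and 0.44. With a value from either array CYC7 was also higher in RM, by 1.32 (SE 0.0675, adjusted p = 6.71e-09, limma). NDE1 had r = 0.65 with CYC1, and NDE2 had -0.10. COX5B followed another order: its r was 0.49 with NDE2 and 0.41 with SDH4, -0.06 with COX5A and -0.25 with NDE1. The genes most like each complex across segregants, of 4434 outside the members, were led by KGD2, of 2-oxoglutarate dehydrogenase, for complex II (r = 0.88) and by INH1 for complex III (0.79). TIM11 led for complex IV (0.81) and MIR1, the mitochondrial phosphate carrier, for complex V (0.92). INH1 was among the first 3 for complexes II, III, IV and V. NDE1 was most like DDC1, NSG2 and UPS2 (0.68, 0.67 and 0.62), of which UPS2 was also among the first 3 for complexes III and IV.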

How the data were processed

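Values were the log2 ratios the authors deposited, 1 column per array, with no unit stated. Their background correction and normalization steps were not stated in any label or header. Log base 2 and the direction were inferred, the direction from strain markers and dye labels: the sign was turned so that own RNA stands over the BY4716 pool. Deposited arrays were centred on a mean of 0 (largest absolute mean 1.16e-08). Probe names came from the platform annotation; probe sequences were not used here. The 2 arrays of a pair were averaged, missing where either lacked the probe, and RM pairs of the same number were averaged. Tested probes lacked no more than 1 replicate in each parent and had values in 80% of segregants; the test was run with limma 3.58.1 in R 4.3.3 (lmFit, eBayes), Benjamini-Hochberg adjusted over 2639 probes, calls at 0.05. For spread, absolute deviations from the group mean were tested, with the first pair of each RM number in place of the average. Figures and summaries used Python 3.11.15, pandas 2.3.3 and matplotlib 3.10.9.

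The genes, their grouping and the other lists were chosen with earlier results of these data known. All members could be named, with up to 4 tested genes per other list by lowest adjusted p, the regulators HAP1 and HAP4, CYC1, CYC7, COX5B, strain markers and, per complex, the 3 other genes of highest r. Same-numbered BY and RM replicates had correlated deviations over probes (r = 0.129 to 0.511 for the 6 numbers). For BY replicates 1, 3 and 5 the RM replicate of the same number gave the highest r, and for 2, 4 and 6 another did. The labels do not pair the numbers, so the main fit held no replicate block. An alternative fit with that block called 27 members too. Data were simulated for these probes with independent values per replicate, so the separate BY sets were not imitated. There 91% and 98% of differences of 0.5 and 1 on the log2 scale between RM and BY were recovered. Of those calls, 7.8% fell on unchanged probes. Segregant SDs raised 3 and 5 times were recovered in 49% and 98% with 200 changed probes, and in 92.6% and 100% with 1000. The number of replicates limits the precision.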

Additional observations from a re-analysis of the deposited data

Results flagged for a closer look

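Among 64 sets of at least 4 replicates of 1 parent, over all 36 genes, 2 had a value far from the rest, and chance alone gives such a value in about 1 set of 20. SDH1 stood at 0.47 in BY replicate 1, with the other BY values, all of replicates 3 to 6, between -1.06 and -0.78, a gap of 0.816 of the range. BY replicate 2 had no SDH1 value on both arrays. ATP16 stood at 1.01 in RM replicate 6, with the other RM values between 0.69 and 0.80, a gap of 0.658 of the range. Without RM replicate 6 and without each other replicate, ATP16 differed by 1.17 to 1.28 between RM and BY.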

How the results depend on the processing

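All 27 tested members were called higher in RM under each alternative that kept those genes, except that 26 were with all 3 groups in 1 fit. Leaving out each replicate in turn gave 27 to 27 members, 1378 to 1628 of all probes (1478 with every replicate), and medians of 1.50 to 1.71 for complex II, 1.62 to 1.78 for III, 1.25 to 1.38 for IV, 1.08 to 1.24 for V and 1.25 to 1.38 for all 27. With the replicate block 27 members and 1581 probes were called, and it changed no call of a named gene. With the sign of BY replicates 1 and 2 turned, an alternative chosen after seeing the data like that with those replicates alone and the filter of 3 values for midpoint and spread, 27 were called. With BY replicates 1 and 2 alone the medians were 0.92, 1.23, 1.07 and 0.79 for complexes II to V and 1.01 for all 27; with replicates 3 to 6 alone, complex V had 1.34. Over all probes RM against BY called 2639 with a value from either array and 2414 with at least 3 values per parent (more probes tested in both). With all 3 groups in 1 fit it called 474. That fit took 1 residual variance over parents and segregants, whose median SDs over all probes were 0.110 and 0.258. The cause of its lower count was not tested. The segregant mean was called above the midpoint for 41 probes and below it for 17. With either array accepted, and more probes tested, these were 71 and 31, and with BY replicates 3 to 6 alone 28 and 6. With arrays centred on their median they were 54 and 8, and with Cy5 arrays alone 41 and 3. Segregant spread called 5 members: 24 with BY replicates 3 to 6 alone, 15 by the F ratio, 3 with Cy5 arrays alone and 3 with at least 3 values per parent. Over all probes it called 1102 in either direction, 1100 of them larger in segregants. With BY replicates 3 to 6 alone these were 1688 and 1683. The F ratio, which tested only for a larger spread in segregants, called 2034. Correlations between members had medians of 0.61 on Cy5 and 0.64 on Cy3 arrays alone. No call of a member or a named gene was reversed in direction. Among the 6 tested electron donor genes, 0 were called lower in the main fit and 1 was with BY replicates 1 and 2 alone.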
